A study of Homo sapiens with 9 samples.

Results

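The 10 genes described here encode transcription factors of the epithelial-mesenchymal transition (EMT) and were read from a gene-level count table by their symbols. They were SNAI1, SNAI2, TWIST1, TWIST2, ZEB1, ZEB2, PRRX1, FOXC1, FOXC2 and GRHL2, which are 10 of the 60603 genes listed. After a filter on low counts, 9 of the 10 were among the 16093 genes tested, and GRHL2 was the gene left out.

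The cells were TC32, an established Ewing sarcoma line that carries the EWS::FLI1 fusion and is labelled wild type for genotype. Polyadenylated RNA was sequenced at 30 h in 3 groups of 3 libraries, which the labels call biological replicates of a single batch. The siEF group was plated on an siRNA directed to the breakpoint of the fusion, the siNEG group on a nonspecific siRNA, and the Media group is labelled Media, with no siRNA named in its treatment label although the protocol text, which is the same for all samples, mentions one. All 3 groups shared the cell line, the growth medium and the incubation time, so P values measure the spread between cultures of a single line. The values are expected counts, estimates made with RSEM of the number of reads from each gene, which can be fractional. They summed to between 20727706 and 33134581 per library. CPM values below are counts scaled to a common library size after TMM normalization, and ± gives the SD of 3 libraries.

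In the epithelial-mesenchymal transition, cells lose the junctions and keratins of an epithelium and gain the matrix, cytoskeleton and motility of a mesenchyme. Zinc finger factors of the SNAI and ZEB families repress epithelial genes through E-box elements, basic helix-loop-helix TWIST factors pair with E proteins, and PRRX1, FOXC1 and FOXC2 act in developing mesenchyme. GRHL2 works in the opposite direction, since it activates epithelial junction genes and opposes ZEB1. Ewing sarcoma is a tumor of bone and soft tissue without a settled cell of origin. Its fusion protein binds GGAA motifs, and as a repeat such motifs can act as enhancers.

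The promoter windows of 5 of these genes are shown because the members differ in response and because GGAA is the core of the element that EWS::FLI1 binds. Each is the RefSeq window of 300 bases on GRCh38.p14, from 250 bases before to 50 bases after a transcription start, read 5′ to 3′ on the strand of the gene. Capitals mark GGAA or its reverse complement TTCC, and the E-box CAGGTG or its reverse complement CACCTG, which SNAI and ZEB factors bind. ZEB1 had 7 starts in the table and the one with the most E-boxes is printed. No window was read for SNAI1, SNAI2, TWIST1, FOXC2 and GRHL2.
TWIST2 at chr2:238847835-238848134 (plus strand): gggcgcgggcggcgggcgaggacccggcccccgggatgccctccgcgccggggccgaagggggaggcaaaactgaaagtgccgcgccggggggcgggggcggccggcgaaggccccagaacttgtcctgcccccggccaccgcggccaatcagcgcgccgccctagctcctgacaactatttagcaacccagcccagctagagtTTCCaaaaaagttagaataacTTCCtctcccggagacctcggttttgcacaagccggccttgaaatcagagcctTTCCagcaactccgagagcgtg
PRRX1 at chr1:170663881-170664180 (plus strand): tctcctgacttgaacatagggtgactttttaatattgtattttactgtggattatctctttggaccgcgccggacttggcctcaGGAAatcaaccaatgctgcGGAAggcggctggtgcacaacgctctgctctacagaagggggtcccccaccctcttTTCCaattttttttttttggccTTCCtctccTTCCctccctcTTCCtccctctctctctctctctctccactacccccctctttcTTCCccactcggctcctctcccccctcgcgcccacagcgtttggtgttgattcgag
FOXC1 at chr6:1609665-1609964 (plus strand): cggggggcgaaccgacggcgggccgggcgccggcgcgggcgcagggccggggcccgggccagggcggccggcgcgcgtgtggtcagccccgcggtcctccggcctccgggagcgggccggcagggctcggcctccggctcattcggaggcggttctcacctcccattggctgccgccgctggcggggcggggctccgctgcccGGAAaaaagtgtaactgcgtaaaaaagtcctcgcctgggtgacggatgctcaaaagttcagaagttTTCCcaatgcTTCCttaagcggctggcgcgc
ZEB1 at chr10:31318966-31319265 (plus strand): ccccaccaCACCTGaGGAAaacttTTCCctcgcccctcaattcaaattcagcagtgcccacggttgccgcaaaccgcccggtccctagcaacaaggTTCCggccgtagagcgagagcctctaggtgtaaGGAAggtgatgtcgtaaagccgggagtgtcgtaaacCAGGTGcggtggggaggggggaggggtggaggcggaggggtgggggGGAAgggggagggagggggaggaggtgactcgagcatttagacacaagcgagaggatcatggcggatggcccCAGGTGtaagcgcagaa
ZEB2 at chr2:144520070-144520369 (minus strand): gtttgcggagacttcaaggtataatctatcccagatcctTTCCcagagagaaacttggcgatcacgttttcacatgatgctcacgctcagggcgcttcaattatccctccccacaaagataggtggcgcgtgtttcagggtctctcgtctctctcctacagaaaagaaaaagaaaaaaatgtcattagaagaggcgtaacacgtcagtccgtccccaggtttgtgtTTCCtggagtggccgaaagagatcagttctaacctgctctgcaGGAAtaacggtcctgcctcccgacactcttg

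The TWIST2 window held 3 copies of GGAA or TTCC, the FOXC1 window 3, the ZEB2 window 3, and the PRRX1 window 7. The 7 ZEB1 windows held between 3 and 6 copies. Of 35116 windows of this length for 27305 genes, 95.5% held at least 1 copy and the median was 3, and these windows are among them. A pair of adjacent copies, GGAAGGAA or TTCCTTCC, was found in 1 of the 11 windows of these genes, the ZEB1 window that starts at position 31318167 of chromosome 10, against 3.67% of all windows. CAGGTG or CACCTG was found 3 times in the printed ZEB1 window, which was picked for these copies, and once in that other ZEB1 window. It was found in none of the remaining ZEB1 windows, and in none of the TWIST2, PRRX1, FOXC1 and ZEB2 windows. Of all windows, 20.6% held at least 1 copy of it. These are matches of letters and no binding was measured here. Any element outside the windows is not covered.

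FLI1, which supplies the 3′ part of the fusion, was at 37.8 CPM in siEF, 48.4 CPM in siNEG and 57.9 CPM in Media, and siEF differed from siNEG by -0.35 on the log2 scale (adjusted P = 2.88e-05, edgeR). Of 7 genes fixed as markers of Ewing sarcoma (CD99, NKX2-2, NR0B1, STEAP1, PRKCB, LIPI and PAX7), 6 were called lower in siEF than in siNEG. The share over all tested genes was 11.7%. CD99 moved the other way without a call, from 160.9 CPM in siNEG to 189.1 CPM in siEF (log2 fold change 0.23, adjusted P = 0.00123, edgeR). Its level in Media was 204.1 CPM. The authors describe NR0B1 and PRKCB as targets of the fusion. The sum of the 7 ranged from 381.4 to 391.8 CPM in siEF, from 751.4 to 764.5 CPM in siNEG and from 877.2 to 917.1 CPM in Media. The sum of 5 epithelial markers (EPCAM, CDH1, KRT5, KRT14 and KRT20) ranged from 5.96 to 7.44 CPM in siEF, from 0.0962 to 0.472 CPM in siNEG and from 0.698 to 0.882 CPM in Media. All 5 were called higher in siEF than in siNEG, against 17.1% of all tested genes. Against Media all but EPCAM were called higher, and EPCAM had a log2 fold change of 0.02. The sum of 4 blood markers stayed between 0.594 and 0.984 CPM in all 9 libraries, and none was called among the 1 tested. That of 4 endothelial markers stayed between 3.62 and 5.24 CPM, while TEK was called higher in siEF (10.6-fold, from 0.206 to 2.23 CPM) and PECAM1 lower (from 3.69 to 1.60 CPM). The 10 most abundant genes took between 12.3% and 12.9% of the counts of siEF libraries and between 5.78% and 6.62% of the others. The part of these differences in the results below was not tested. In bulk RNA, fewer cells that express a gene and less RNA per cell cannot be told apart.

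Silencing of the fusion was compared with the nonspecific siRNA to ask which of these factors move when EWS::FLI1 is reduced. Both SNAI genes, TWIST2, PRRX1, FOXC1 and FOXC2 were called higher in siEF than in siNEG, with rises from 2.80-fold for SNAI1 to 27.3-fold for FOXC2. ZEB1 rose by less, 1.60-fold (adjusted P = 0.000408, edgeR's quasi-likelihood test), and did not reach the fold change needed for a call. TWIST1 and ZEB2 moved the other way, with falls of 1.52-fold and 1.22-fold. A gene was called when its adjusted P was under 0.01 and its log2 fold change was above 1 or below -1. By that rule 6 of 9 tested members were called higher, against 17.1% of all tested genes, and 0 were called lower, against 11.7% of all tested genes. DESeq2 also called 6 higher and 0 lower. At an adjusted P under 0.01 without the fold change cut-off, 7 were higher and 2 lower, against 65.4% of all tested genes in either direction, and at an unadjusted P under 0.05 the counts were again 7 and 2. For each of the 9, the siEF and siNEG libraries did not overlap, against 76.9% of all tested genes. The median log2 fold change of the 9 was 1.58 and that of all tested genes was 0.0461. The plot of fold changes sets the comparison beside those with Media.

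**Figure D1:**
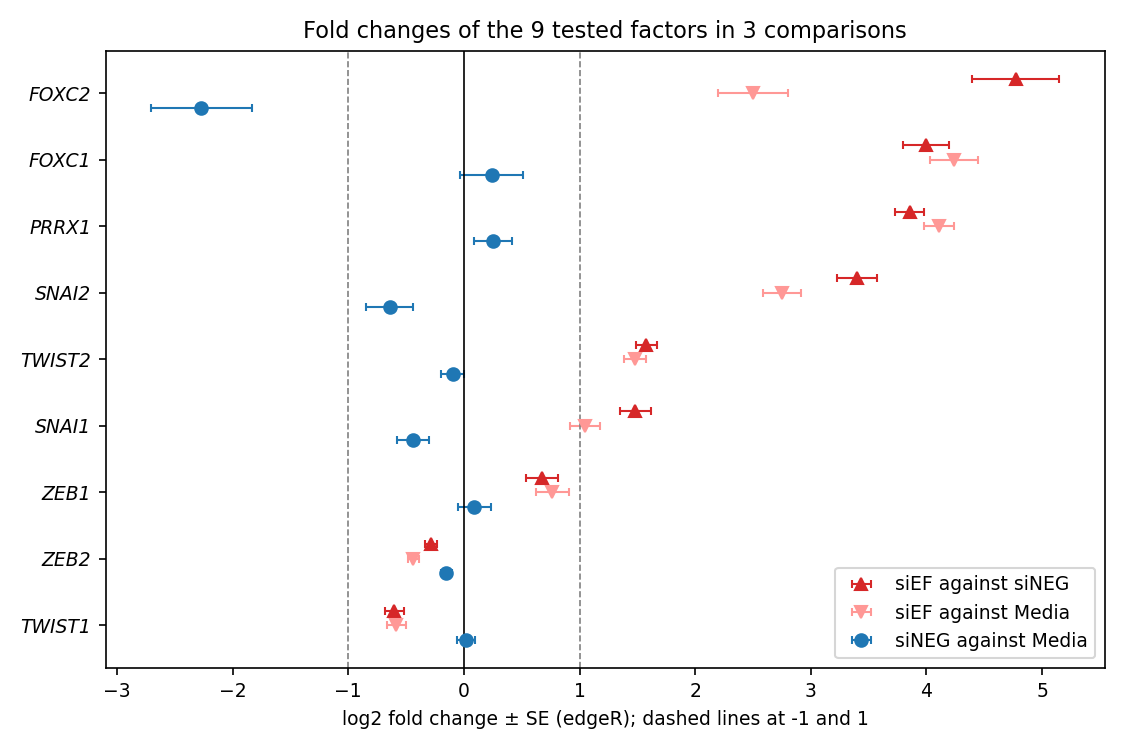
Log2 fold changes of the 9 tested factors with their standard errors (bars), for siEF against siNEG (red), siEF against Media (pink) and siNEG against Media (blue), with dashed lines at -1 and 1. FOXC2, FOXC1, PRRX1 and SNAI2 sit beyond 3 against siNEG, TWIST2 and SNAI1 at 1.58 and 1.48, ZEB1 at 0.67, and ZEB2 and TWIST1 below 0, while only FOXC2 lies beyond a dashed line between siNEG and Media.

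SNAI1 encodes the zinc finger repressor Snail, which binds E-boxes of the CDH1 promoter. It lies on chromosome 20 of GRCh38 from 49982980 to 49988886. SNAI1 had 246, 160 and 257 counts in siEF replicates 1, 2 and 3, 106, 100 and 89 in siNEG, and 139, 117 and 119 in Media. Scaled for depth, the siEF libraries were highest at 8.51 ± 0.586 CPM, siNEG lowest at 3.05 ± 0.263 CPM and Media between them at 4.14 ± 0.414 CPM, with no overlap among the 3 groups. SNAI1 was 2.80-fold higher in siEF than in siNEG, or 1.48 on the log2 scale (SE 0.13, adjusted P = 3.32e-08, edgeR).

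SNAI2 encodes Slug, a close relative of Snail with the same E-box and a role in neural crest migration. It lies on chromosome 8 from 48917598 to 48921740. SNAI2 had 360, 243 and 418 counts in siEF replicates, 51, 37 and 32 in siNEG replicates, and 70, 56 and 50 in Media replicates. It was at 13.1 ± 1.21 CPM in siEF against 1.24 ± 0.321 CPM in siNEG and 1.94 ± 0.303 CPM in Media, so that siEF stood far above both controls and siNEG just below Media. The rise against siNEG was 10.5-fold, or 3.40 on the log2 scale (SE 0.17, adjusted P = 2.25e-11, edgeR).

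TWIST1 encodes a basic helix-loop-helix factor of cranial mesenchyme. It lies on chromosome 7 from 19020991 to 19117636. TWIST1 had 307, 219 and 341 counts in siEF, 489, 616 and 542 in siNEG, and 512, 533 and 480 in Media. All siEF libraries were below all control libraries, at 11.2 ± 0.486 CPM against 17.0 ± 1.39 CPM in siNEG and 16.8 ± 0.101 CPM in Media. The log2 fold change against siNEG was -0.60 (SE 0.08, adjusted P = 4.57e-06, edgeR), short of the cut-off for a call.

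TWIST2, also known as Dermo1 for its role in dermis, encodes a factor with a bHLH domain nearly identical to that of TWIST1. It lies on chromosome 2 from 238848032 to 238910534, and its promoter window is printed above. TWIST2 had 1152, 1040 and 1277 counts in siEF, 468, 491 and 508 in siNEG, and 565, 491 and 420 in Media. The siEF libraries were high at 45.4 ± 4.88 CPM, and the controls overlapped each other at 15.2 ± 0.970 CPM in siNEG and 16.2 ± 1.97 CPM in Media. TWIST2 rose 2.99-fold, or 1.58 on the log2 scale (SE 0.09, adjusted P = 1.27e-10, edgeR). The paralogues TWIST1 and TWIST2 therefore moved in opposite directions in the same libraries. Counts were estimated with RSEM, and between 4011 and 4395 values per library were fractional. How reads that match both genes were shared between them was not examined.

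ZEB1 encodes a zinc finger and homeodomain repressor that acts in a mutual inhibition with microRNAs of the miR-200 family. It lies on chromosome 10 from 31318495 to 31529814. ZEB1 had 479, 281 and 507 counts in siEF, 372, 327 and 285 in siNEG, and 261, 256 and 346 in Media. It was at 16.2 ± 2.07 CPM in siEF, 10.2 ± 1.39 CPM in siNEG and 9.58 ± 2.18 CPM in Media, with the siEF libraries above both controls and the controls overlapping. The log2 fold change against siNEG was 0.67 (SE 0.14, adjusted P = 0.000408, edgeR). ZEB1-AS1, an antisense transcript that overlaps the gene, had between 29 and 43 counts in the 9 libraries, and the pseudogene SPTLC1P1 within it between 3 and 18.

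ZEB2, the close relative of ZEB1 that is mutated in Mowat-Wilson syndrome, lies on chromosome 2 from 144364364 to 144521057. It had 3797, 2640 and 3929 counts in siEF, 5155, 5520 and 5091 in siNEG, and 5315, 5550 and 5567 in Media. The groups were ordered without overlap, with siEF lowest at 133.7 ± 4.03 CPM, siNEG at 162.9 ± 0.264 CPM and Media highest at 181.4 ± 11.4 CPM. On the log2 scale siEF differed from siNEG by -0.28 (SE 0.05, adjusted P = 5.54e-05, edgeR). The antisense ZEB2-AS1 had between 2 and 17 counts per library. The strand setting of the counting was not given in the sources used here, so reads of a gene and of its antisense partner cannot be told apart.

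PRRX1 encodes a paired-related homeobox factor of limb and craniofacial mesenchyme. It lies on chromosome 1 from 170662728 to 170739421. PRRX1 had 1184, 689 and 1142 counts in siEF, 68, 93 and 97 in siNEG, and 70, 75 and 58 in Media. The siEF libraries lay at 38.6 ± 4.55 CPM, far above 2.67 ± 0.485 CPM in siNEG and 2.23 ± 0.184 CPM in Media, which overlapped. The rise was 14.5-fold, or 3.86 on the log2 scale (SE 0.12, adjusted P = 6.19e-14, edgeR), the smallest adjusted P of the 9.

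FOXC1 and FOXC2 encode forkhead factors of paraxial mesoderm, vessels and the anterior eye. FOXC1, on chromosome 6 from 1609915 to 1613897, had 358, 262 and 367 counts in siEF, 17, 26 and 34 in siNEG, and 26, 16 and 19 in Media. The siEF libraries were tight at 12.8 ± 0.183 CPM and the controls overlapped below 1.1 CPM each. The rise was 16.0-fold, or 4.0 on the log2 scale (SE 0.20, adjusted P = 1.73e-11, edgeR). FOXC2, on chromosome 16 from 86566829 to 86569728, had 135, 94 and 152 counts in siEF, 9, 7 and 1 in siNEG, and 19, 26 and 33 in Media. It was at 4.90 ± 0.304 CPM in siEF, 0.174 ± 0.129 CPM in siNEG and 0.866 ± 0.268 CPM in Media, with no overlap between any of the groups. The log2 fold change against siNEG was 4.77 (SE 0.38, adjusted P = 6.34e-09, edgeR), and it rests on at most 9 counts per siNEG library.

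GRHL2, the grainyhead-like activator of epithelial genes, lies on chromosome 8 from 101492439 to 101669726. It had 3, 1 and 1 counts in siEF, 0, 3 and 0 in siNEG, and 0, 0 and 0 in Media. No library exceeded 3 counts, so no fold is given, and a difference was not detectable at this depth.

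**Figure D2:**
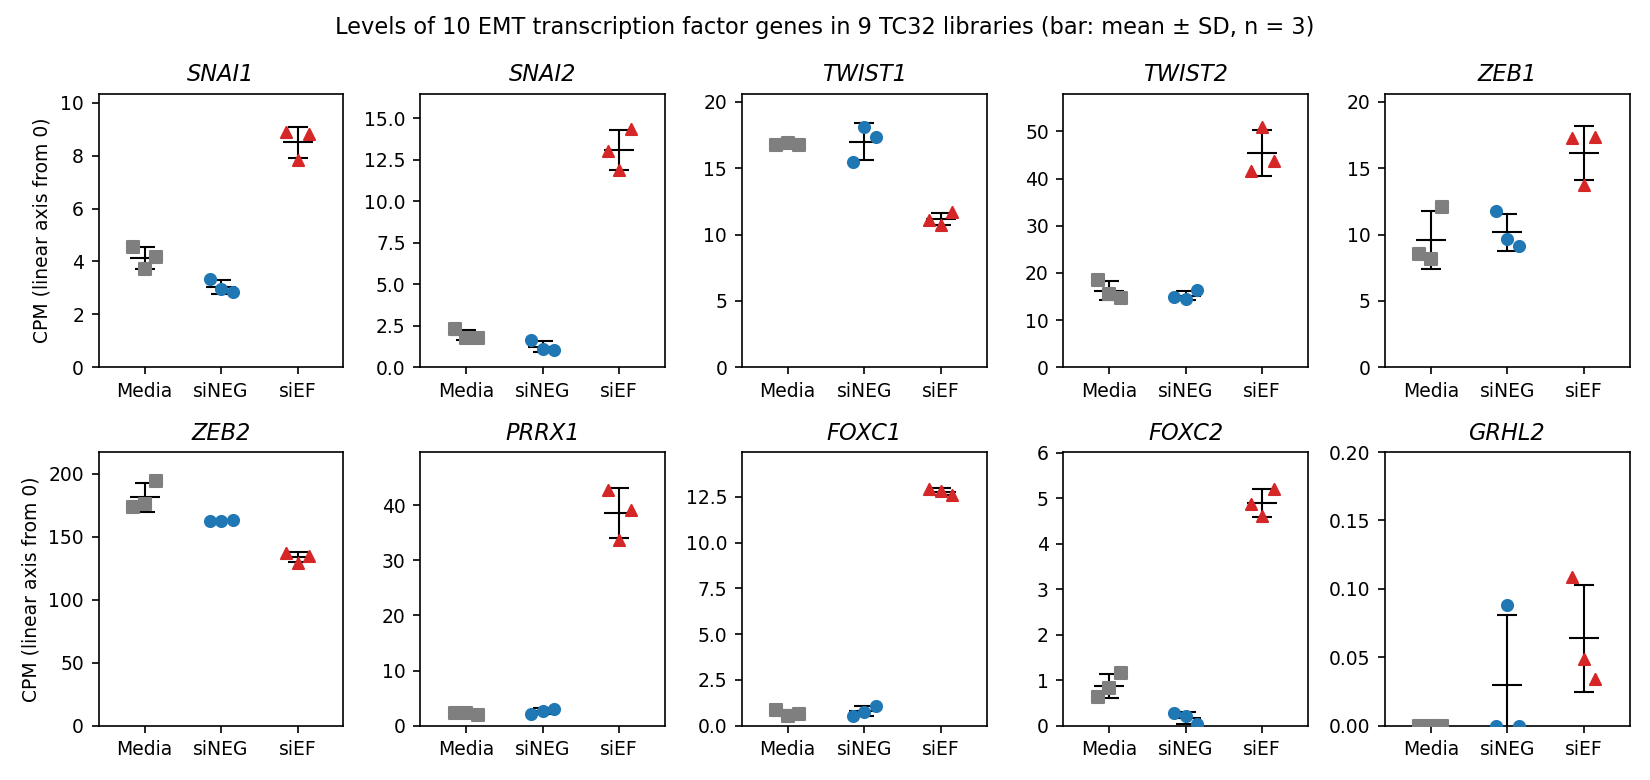
CPM of each of the 10 genes in each library on a linear axis from 0, with Media as grey squares, siNEG as blue circles and siEF as red triangles, and bars for mean ± SD (n = 3). SNAI1, SNAI2, TWIST2, ZEB1, PRRX1, FOXC1 and FOXC2 are highest in siEF, TWIST1 and ZEB2 are lowest there, and GRHL2 does not exceed 3 counts in any library.

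The comparison of siNEG with Media asks what the nonspecific siRNA changed. Of the 9 members, 0 were called higher (edgeR's quasi-likelihood test), against 0.162% of all tested genes, and 1 was called lower, against 0.267% of all tested genes. At an unadjusted P under 0.05 there were 0 higher and 4 lower, and the share of all tested genes at that threshold was not computed. DESeq2 called 0 members higher and 1 lower, against 24 higher and 39 lower of 13117 genes. FOXC2 was the member called, at a 4.82-fold lower level in siNEG, or -2.27 on the log2 scale (SE 0.43, adjusted P = 0.00166, edgeR). It was also the single member at an adjusted P under 0.01, a share to read beside 9.79% of all tested genes. SNAI1, SNAI2 and ZEB2 also lay below the Media range in all 3 siNEG libraries, with log2 fold changes of -0.44, -0.64 and -0.15 and adjusted P of 0.0387, 0.0376 and 0.0341 (edgeR), above the threshold of 0.01. The 2 groups did not overlap for these 4 members, against 32.7% of all tested genes. For TWIST1, TWIST2, ZEB1, PRRX1 and FOXC1 the groups overlapped, with log2 fold changes between -0.10 and 0.25.

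Against Media, the same siEF libraries gave log2 fold changes of 1.04 for SNAI1, 2.76 for SNAI2, 1.48 for TWIST2, 4.11 for PRRX1, 4.24 for FOXC1 and 2.50 for FOXC2. These 6 were called higher, against 17.4% of all tested genes, and 0 were called lower (edgeR), against 12.5% of all tested genes. DESeq2 called 6 and 0, and the counts at an unadjusted P under 0.05 were 7 higher and 2 lower. Without the cut-off on fold change, 7 were higher and 2 lower at an adjusted P under 0.01, against 65.9% of all tested genes in either direction. The groups did not overlap for all 9, against 75.8% of all tested genes. ZEB1 was at 0.76, TWIST1 at -0.59 and ZEB2 at -0.44 on the log2 scale. The comparisons share the siEF libraries, so they are not independent of each other. The choice of control mattered most for FOXC2, which rose 27.3-fold against siNEG and 5.66-fold against Media. SNAI1 was close to the cut-off against Media, and without Media replicate 2 its log2 fold change was 0.96, short of a call.

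To compare levels between genes, CPM was divided by the length of all annotated exons of a gene in kilobases. On that scale, the 9 tested factors summed to 52.5 ± 0.715 CPM per kb in siEF, 25.8 ± 0.544 in siNEG and 27.8 ± 0.924 in Media. In siNEG the highest levels were those of TWIST1 (8.51 ± 0.697 CPM per kb), TWIST2 (7.12 ± 0.455) and ZEB2 (6.23 ± 0.0101), without overlap between neighbours. SNAI1 followed at 1.79 ± 0.154 CPM per kb and ZEB1 at 1.18 ± 0.161. SNAI2, PRRX1, FOXC1 and FOXC2 were each below 0.5 CPM per kb, and the ranges of SNAI2 and PRRX1, and of PRRX1 and FOXC1, overlapped. GRHL2 came last, with a range that overlapped that of FOXC2.

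In Media the order of the first 6 was the same, but the ranges of TWIST1, TWIST2 and ZEB2 overlapped from one neighbour to the next, as did those of FOXC2 and PRRX1, which came seventh and eighth. In siEF, TWIST2 stood alone at 21.3 ± 2.29 CPM per kb, which was 40.6% of the sum, against 27.6% in siNEG. TWIST1 was next at 5.59 ± 0.243 CPM per kb, ZEB2 at 5.11 ± 0.154, SNAI1 at 4.99 ± 0.344, PRRX1 at 4.67 ± 0.551 and SNAI2 at 3.99 ± 0.370. The ranges of ZEB2 and SNAI1, of SNAI1 and PRRX1, and of PRRX1 and SNAI2 overlapped, so these neighbours cannot be ordered. FOXC1 was at 3.21 ± 0.0460 CPM per kb, ZEB1 and FOXC2 overlapped at 1.87 ± 0.239 and 1.69 ± 0.105, and GRHL2 was last at 0.0106. The share of TWIST1 in the sum was 32.97% in siNEG and 10.7% in siEF, and that of ZEB2 was 24.2% and 9.75%. The order depends on the length used. With the length of the canonical transcript in place of all exons, an alternative chosen after the data were seen, ZEB2 ranked 1 in siNEG and Media and 2 in siEF, and TWIST2 still ranked 1 in siEF.

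Within the 3 pairs of paralogues the balance differed between siEF and siNEG in each pair. For SNAI2 over SNAI1, the log2 ratio of counts per kb was -0.40, -0.34 and -0.24 in siEF replicates 1, 2 and 3 and -2.0, -2.38 and -2.42 in siNEG. With exon lengths, the SNAI1 level exceeded that of SNAI2 in every library, by 4.81-fold on average in siNEG and 1.25-fold in siEF, but with canonical lengths the direction turned in siEF, where the log2 ratio was between 0.19 and 0.35. For TWIST2 over TWIST1, the log2 ratio was 1.81, 2.15 and 1.81 in siEF and -0.16, -0.42 and -0.19 in siNEG. TWIST2 was at 3.80 times the level of TWIST1 in siEF and 0.838 times in siNEG with exon lengths, and with canonical lengths the mean log2 ratio in siNEG turned to 0.12. For ZEB2 over ZEB1, the log2 ratio was 1.39, 1.64 and 1.36 in siEF and 2.20, 2.48 and 2.56 in siNEG, so that ZEB2 exceeded ZEB1 in every library, by 2.75 times in siEF and 5.33 times in siNEG. The changes of the log2 ratio were 1.94, 2.18 and -0.95 in the order given. Each had an exact two-sided permutation P of 0.1, the smallest that 3 libraries against 3 allow, so the changes are descriptions. Between siNEG and Media the ratios differed by -0.22, -0.10 and -0.26, with exact two-sided permutation P of 0.3, 0.6 and 0.3. Canonical lengths, the alternative chosen after the data were seen, raised the 3 log2 ratios by 0.59, 0.37 and 0.95 in every group and left the changes between groups as they were.

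**Figure D3:**
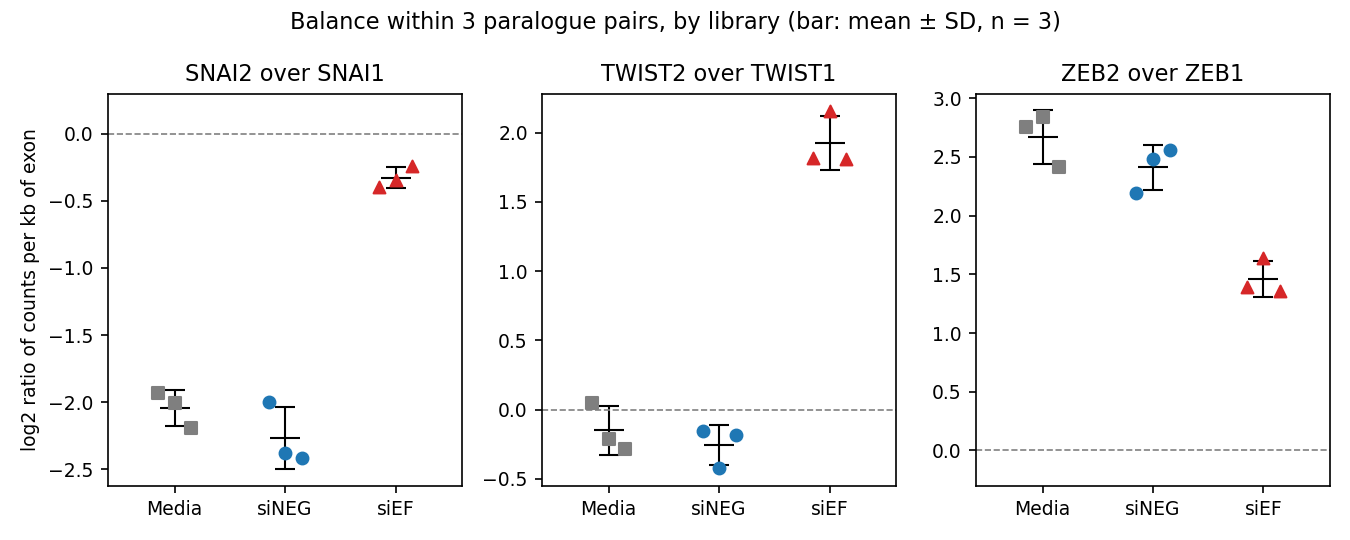
Log2 ratio of counts per kb of exon within 3 paralogue pairs in each library, with Media as grey squares, siNEG as blue circles, siEF as red triangles, bars for mean ± SD (n = 3) and a dashed line at equal levels, whose place relative to the points depends on the length used for each gene. SNAI2 over SNAI1 goes from a mean of -2.27 in siNEG to -0.33 in siEF, TWIST2 over TWIST1 from -0.25 to 1.93, and ZEB2 over ZEB1 from 2.41 to 1.46.

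Genes on which these factors are known to act were described from lists chosen with earlier results of these data known. Some genes are on more than 1 list, so the same call can count in each. Epithelial genes that SNAI, ZEB or TWIST factors repress or GRHL2 activates numbered 34, of which 23 were tested. Of these, 13 were called higher and 1 lower in siEF than in siNEG, against the 17.1% and 11.7% of all tested genes, and their median log2 fold change was 1.51. CDH1, the adherens junction protein E-cadherin, had 28, 16 and 27 counts in siEF and 0 in every siNEG library, and was at least 9.74-fold higher against a floor of 3 counts per library. Its mean level in siEF was 0.907 CPM. EPCAM had 13, 9 and 9 counts in siEF, 1, 3 and 0 in siNEG and 13, 10 and 13 in Media, which put siEF at a minimum of 4.36-fold above siNEG, while its means in siEF and Media were 0.406 and 0.399 CPM.

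Within the list of 34, the largest rises of genes at 1 CPM or more were those of the tight junction scaffold TJP3 (log2 fold change 5.17), the desmosomal plakin PPL (3.98), the claudin CLDN4 (3.53) and plakoglobin, JUP (3.10). Plakoglobin is also a junction and signalling protein of cells other than epithelium, and it was at 121.6 CPM in siEF and 14.2 CPM in siNEG. The other 3 did not exceed 2.94 CPM in any siEF library, and their fold changes rest on at most 5 counts per siNEG library. CGN, which encodes the tight junction protein cingulin, was the gene called lower, at -1.21 on the log2 scale (adjusted P = 8.25e-05, edgeR). The 11 epithelial genes that were not tested for low counts include CLDN3, CLDN7, RAB25, ST14 and KRT19, none of which reached 0.5 CPM on average in any group.

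Mesenchymal genes rose alongside. Of 30 listed, 29 were tested, 24 were called higher and 0 lower (edgeR), against the 17.1% and 11.7% of all tested genes, and their median log2 fold change was 2.53. DESeq2 called 24 and 1, and the counts at an unadjusted P under 0.05 were 28 higher and 1 lower. VIM, the intermediate filament vimentin, was already at 1015 CPM in siNEG and rose to 2140 CPM in siEF (2.11-fold, adjusted P = 3.65e-12, edgeR). CDH2, or N-cadherin, rose from 5.73 to 12.3 CPM (2.15-fold) and FN1, the matrix protein fibronectin, from 6894 to 39920 CPM (5.79-fold). Among listed genes with at least 1 CPM in siEF, the largest rises were those of LUM, POSTN, COL1A1 and FBN1, all genes of extracellular matrix. The membrane protease FAP, named after its values were seen, was just below that level at 0.979 CPM and at a minimum of 10.5-fold above siNEG. LUM was at least 13.3-fold higher against 3 counts per siNEG library, and the log2 fold changes of POSTN, COL1A1 and FBN1 were 4.81, 4.49 and 3.67. That of POSTN rests on at most 4 counts per siNEG library. COL1A1 went from 15.2 to 340.9 CPM, while COL1A2, which encodes its partner chain, was the gene not tested and averaged 0.205 CPM in siEF and 0 in the controls. Without a fold change cut-off 28 were higher and 1 lower at an adjusted P under 0.01 (edgeR), against 33.6% and 31.7% of all tested genes. The gene that was lower was SPARC, at -0.99 on the log2 scale. Calls in both the epithelial and the mesenchymal list were thus higher in siEF, with the exception of CGN, as the plot of the gene lists shows.

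**Figure D4:**
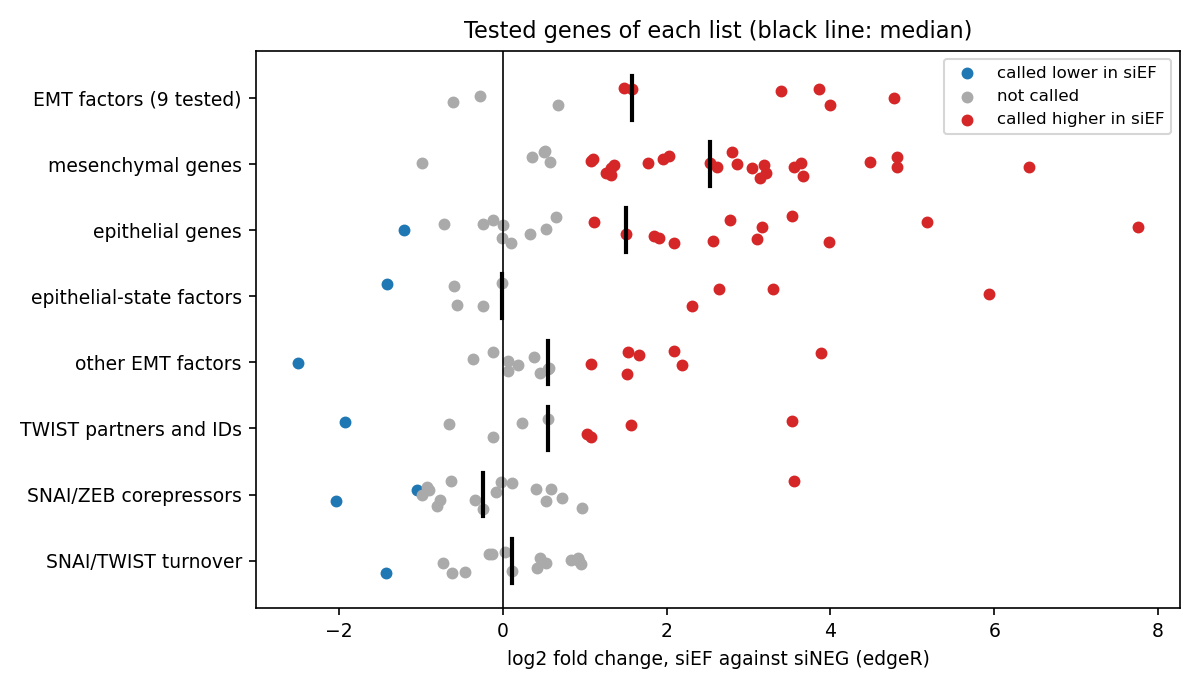
Log2 fold change of siEF against siNEG for each tested gene of 8 lists (red, called higher; blue, called lower; grey, not called), with a black line at the median. The median is 2.53 for mesenchymal genes, 1.51 for epithelial genes, 1.58 for the 9 factors and near 0 for factors of the epithelial state, corepressors and turnover enzymes.

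Factors that hold the epithelial state, as GRHL2 does, did not move as a block. Of 18 listed, 9 were tested, 4 were called higher and 1 lower, against the 17.1% and 11.7% of all tested genes, and the median log2 fold change was -0.01, or 1.28 against Media. Both medians are the value of a single gene with few counts, ESRP2, which averaged at most 0.298 CPM in any group. The ETS factors EHF and ELF3 and the Krüppel-like factors KLF5 and KLF4 were higher, with log2 fold changes of 5.94, 3.30, 2.64 and 2.31. EHF rose from 0.163 to 10.4 CPM and KLF5 from 18.5 to 115.1 CPM. GRHL3, named after its values were seen, was the gene called lower (-1.41, adjusted P = 0.00593, edgeR). It was below 1.1 CPM on average in every group and the call was lost without any of the 3 siEF libraries or siNEG replicates 2 or 3. GRHL1 was at -0.56 (adjusted P = 0.135, edgeR). OVOL1, ELF5, FOXA2 and MIR200CHG, a host transcript of miR-200 members, had 0 counts in all 9 libraries, and the splicing regulators ESRP1 and ESRP2 were below 0.6 CPM on average in each group and not called. MIR205HG, the host transcript of miR-205, had 22, 6 and 27 counts in siEF and 0 in all 6 control libraries, at least 7.21-fold higher than a floor of 3 counts per library, and was not tested. The table gives host transcripts and not the mature microRNAs.

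Among 23 other transcription factors reported to drive the transition, 17 were tested, 7 were called higher and 1 lower, against the 17.1% and 11.7% of all tested genes. The largest rises were those of the chondrogenic SOX9 (10.8 to 159.3 CPM, log2 fold change 3.89), the osteogenic RUNX2 (2.19), MSX2 (2.09) and FOXD1 (1.66). FOXM1, a factor of the G2 and M phases of the cell cycle, fell from 193.9 to 34.4 CPM. PRRX2, the paralogue of PRRX1, rose from 9.22 to 26.2 CPM (log2 fold change 1.51, adjusted P = 1.19e-10, edgeR), a ratio of 2.85. SNAI3, the remaining member of the SNAI family in the list, was below 0.1 CPM in every library. Of 12 paralogues and antisense transcripts listed for the members, 5 were tested, 2 were called higher and 1 lower, against the 17.1% and 11.7% of all tested genes. These calls include PRRX2 and GRHL3, which are also counted in other lists. SNAI3-AS1 was called higher (1.59, adjusted P = 0.00337, edgeR) at 1.09 CPM in siEF, and the call was lost without siEF replicate 3, siNEG replicate 2 or siNEG replicate 3. ZEB1-AS1 was at 0.48 (adjusted P = 0.121, edgeR), and its groups overlapped.

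TWIST factors bind DNA as dimers with E proteins, and ID proteins take those partners away. The list of 9 genes also held HAND1 and HAND2, which are neither E proteins nor ID proteins. All 9 were tested, 4 were called higher (TCF4, ID1, ID3 and HAND1) and 1 lower (ID2), against the 17.1% and 11.7% of all tested genes. HAND1, named after its values were seen, averaged 0.634 CPM in siEF, at least 6.81-fold above a floor of 3 counts per siNEG library. Against Media, 2 were called higher and 1 lower, against 17.4% and 12.5% of all tested genes. The E protein TCF4 rose from 55.0 to 115.7 CPM (log2 fold change 1.07), and TCF12 (0.55) was higher without a call. Among the inhibitors ID1 (1.56) and ID3 (1.03) rose while ID2 fell from 231.2 to 61.1 CPM (-1.92, adjusted P = 5.26e-15, edgeR). ID4 was also lower, without a call, at 4.9 CPM in siNEG and 3.13 CPM in siEF (-0.66, adjusted P = 0.000847, edgeR). TCF4 differed between the controls too, at 93.7 CPM in Media, and against Media TCF4 (0.31) and ID3 (0.71) were not called.

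Corepressors that SNAI and ZEB proteins recruit were all above 1 CPM in siNEG. Of 19 tested, 1 was called higher and 2 lower, against the 17.1% and 11.7% of all tested genes. Without the fold change cut-off 6 were higher and 10 lower at an adjusted P under 0.01 (edgeR), against the 65.4% of all tested genes, with a median of -0.24. LOXL2, a lysyl oxidase-like enzyme that binds Snail, rose from 1.12 to 13.2 CPM (log2 fold change 3.56). The histone deacetylase HDAC3 (-2.03) and EED (-1.04), a subunit of Polycomb repressive complex 2, fell. Enzymes that mark SNAI and TWIST proteins for breakdown or spare them numbered 15, all tested, of which 0 were called higher and 1 lower (edgeR), FBXO45 at -1.43, against the 17.1% and 11.7% of all tested genes. DESeq2 gave the same counts for that list, 7 were higher and 5 lower at an unadjusted P under 0.05, and 7 were higher and 4 lower at an adjusted P under 0.01 without the fold change cut-off, which is near the 65.4% of all tested genes. Protein levels were not measured, so these are transcripts of the enzymes and not rates of turnover.

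Each of the 6 called members was set beside the genes whose log2 CPM followed it most closely over the 9 libraries. The 3 nearest genes were DACT3, PKIG and NLGN2 for SNAI1 (Pearson r up to 0.998), MNT, CDKL1 and LTBP4 for SNAI2 (up to 0.998) and ARPC1B, CD81 and FBLN1 for TWIST2 (up to 0.999). They were EFEMP2, DENND2A and COLEC12 for PRRX1 (up to 0.999), MINDY4, BTBD9 and SCARA3 for FOXC1 (up to 0.9995), and OCIAD1, USP32 and IFT57 for FOXC2 (up to 0.985). The 9 libraries fall into 3 groups and share the siEF contrast, so high values are common. Of 13465 genes compared, 17.1% had r above 0.95 with PRRX1, 16.1% with FOXC1, 15.1% with TWIST2, 12.6% with SNAI2 and 6.84% with SNAI1. With FOXC2, 0.98% did, and the cause of that lower share was not tested. These correlations are descriptions across libraries.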

How the data were processed

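The authors mapped RNA-seq reads to hg38 with STAR and estimated gene expression with RSEM, per the methods, and deposited expected counts per gene for each library, neither scaled for depth nor pooled. The submitters' processing notes also name FastQC, cutadapt 2.10 and DESeq2 1.32.0. The annotation release and strand setting were not given in the sources used here. The labels name polyadenylated RNA and a kit for small RNA libraries. Groups and replicate numbers came from the labels.

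The deposited expected counts were rounded, filtered with filterByExpr (16093 of 60603 genes kept), TMM-scaled, and compared by the quasi-likelihood method of edgeR 4.0.16 (R 4.3.3) in a single fit over 9 libraries, with Benjamini-Hochberg adjustment over all genes tested. Each standard error was the absolute log2 fold change over the square root of F. Shares of all tested genes at an unadjusted P under 0.05 were not computed, so counts at that threshold have no background. Ratios of paralogues were compared by exact permutation. A fold against libraries that all held 3 counts or fewer used 3 counts per library. Positions and exon lengths came from GENCODE 44 on GRCh38, promoter windows from RefSeq, and no window of chromosome 8 was used. The procedure was tested on simulated data.

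The members and gene lists were chosen with earlier results of these data known. Named genes were all members, FLI1, CDH1, EPCAM, VIM, CDH2 and FN1, genes overlapping a member, the 3 most correlated genes of each called member, and at most 4 rises and 4 falls per list, called, without overlap and at 1 CPM or more in the higher group. Other genes were named after their values were seen. A gene of the epithelial list is not reported here. Alternatives were DESeq2 1.42.0, upper quartile or RLE factors, other filters and thresholds, only the 6 libraries compared, a replicate block, unrounded counts, Media as the control, and each library left out in turn. No 2 libraries held identical values, and pairs within a group differed by more than sampling noise (chi-square per degree of freedom 3.57 to 23.2).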

Additional observations from a re-analysis of the deposited data

How the results depend on the processing

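Of 537 alternative values for single members, 523 kept their direction and their side of the threshold. The 5 that changed sign were all between siNEG and Media when a library was left out: TWIST2 without Media replicate 1, ZEB1 without Media replicate 2 or siNEG replicate 1, TWIST1 without siNEG replicate 2, and FOXC1 without siNEG replicate 3. Over all libraries left out in turn, those log2 fold changes ranged from -0.1656 to 0.0036 for TWIST2, from -0.0157 to 0.2887 for ZEB1, from -0.034 to 0.0946 for TWIST1 and from -0.0389 to 0.4687 for FOXC1. All 9 tested members kept their direction between siEF and siNEG under every alternative that tested them, and between 5 and 7 were called higher. With no fold cut-off 2 members were called lower in siEF against either control, and the lists gave 2 epithelial, 1 mesenchymal, 2 epithelial-state, 2 TWIST partner, 10 corepressor and 4 turnover genes lower and 11 other EMT, 6 corepressor and 7 turnover genes higher. Without that cut-off 31.7% of all tested genes were lower and 33.6% higher in siEF than in siNEG. Under a test against a fold change of 2, SNAI1 lost its call against Media and FOXC2 its call between siNEG and Media (0 members lower), and 2 TWIST partners were called higher, 1 paralogue higher, 1 corepressor lower, and 0 paralogues, epithelial or epithelial-state genes lower. Requiring at least 10 counts in every library removed FOXC2 (0 members lower between siNEG and Media) and left 8 epithelial, 2 epithelial-state and 1 paralogue genes higher and 0 paralogues or epithelial-state genes lower. Upper quartile scaling gave 2 corepressors and 3 turnover genes higher and 1 corepressor lower, and DESeq2 or no filter on low counts gave 1 mesenchymal gene lower. With each library left out in turn, calls ranged from 1 to 2 paralogues higher, 0 to 1 lower, 0 to 1 epithelial-state genes lower, 0 to 1 mesenchymal genes lower and 0 to 1 turnover genes higher. With Media as the control, the change of the log2 ratio was 1.72 for SNAI2 over SNAI1 and -1.21 for ZEB2 over ZEB1. The causes of these changes were not tested, beyond fewer genes or libraries where the alternative itself removes them.

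Libraries with the same replicate number did not deviate together (correlations between -0.0875 and 0.0482), so the numbers were not taken as pairs. With a replicate block, 2702 genes were called higher and 1859 lower between siEF and siNEG, 6 members were still called higher, and GRHL3 lost its call (0 paralogues and 0 epithelial-state genes lower). Depth limits GRHL2, at most 3 counts per library, and FOXC2 in siNEG, at most 9.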
